A study of Mus musculus with 8 samples.

Results

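The DNA replication and S-phase genes are 42 mouse genes that license and fire replication origins, copy DNA at the fork, supply deoxynucleotides and rebuild chromatin, together with the E2F and cyclin E genes that open S phase. They were chosen by name, and each symbol was matched to an Ensembl ID of the expression table. All 42 were found among its 35275 rows. Of the 42, 40 reached a mean of 1 FPKM over the 8 libraries and were tested, as were 10981 genes in all. FPKM is the number of sequenced fragments of a gene scaled to transcript length and library total, so levels can be set side by side between genes.

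Replication is prepared in G1, when ORC, CDC6 and CDT1 load the MCM2-7 helicase onto origins. In S phase, CDC45 and GINS turn that helicase on, and polymerases then copy both strands around the sliding clamp PCNA. Most of these genes are transcribed by E2F factors when RB is inactivated, and in skeletal muscle they are known to be shut off as myoblasts leave the cell cycle and fuse.

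The samples were multinucleated muscle cells (myotubes) grown in culture from primary myogenic progenitor cells, or MPCs, taken from the C57BL6/J mouse strain, in differentiation medium with horse serum. The 4 groups, of 2 libraries each, were myotubes given extracellular vesicles (EVs, membrane particles shed by cells) of proliferating MPCs for 12 h, myotubes given EVs of growth medium for 12 h as controls, and the same treatments for 24 h. All EVs came from a polymer-based isolation, which can also bring down other material, and myotubes without EVs were not analysed here, so each EV effect is relative to the medium EVs. Nothing in the labels ties the 2 libraries of a group to different cultures. All p-values are therefore set against the variation between libraries, possibly only technical variation. Cultured myotubes can also keep unfused mononucleated cells, and in bulk RNA fewer cells with a transcript and less transcript per cell cannot be told apart.

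Depth, recovered from the step sizes of the FPKM values, was 16324184 to 20187736 fragments per library, with a median of 522 to 664 fragments per tested gene. Myotube markers fixed as a list of 11 summed to 14379 to 14903 FPKM in MPC EV myotubes and 12472 to 14360 FPKM in controls at 12 h, and to 11694 to 12874 FPKM in MPC EV myotubes and 9034 to 9375 FPKM in controls at 24 h. Endothelial, leukocyte and adipocyte lists summed to at most 3.17 FPKM in any library. One library stood apart: replicate 2 of the 12 h controls correlated with replicate 1 at 0.947 over tested genes, against 0.992 to 0.996 within the other groups. In it, 736 long transcripts of low GC content were lower than in replicate 1 by a median log2 of -1.5. The difference between these libraries was within 0.5 log2 for 37 of the 40 tested replication genes (92.5%), against 83.8% of all tested genes, and its median was 0.06 for the replication genes. The exceptions were Pola1 with 16 fragments in replicate 2 against 235 in replicate 1, Ccne2 with 14 against 173, and Gins3.

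**Figure D1:**
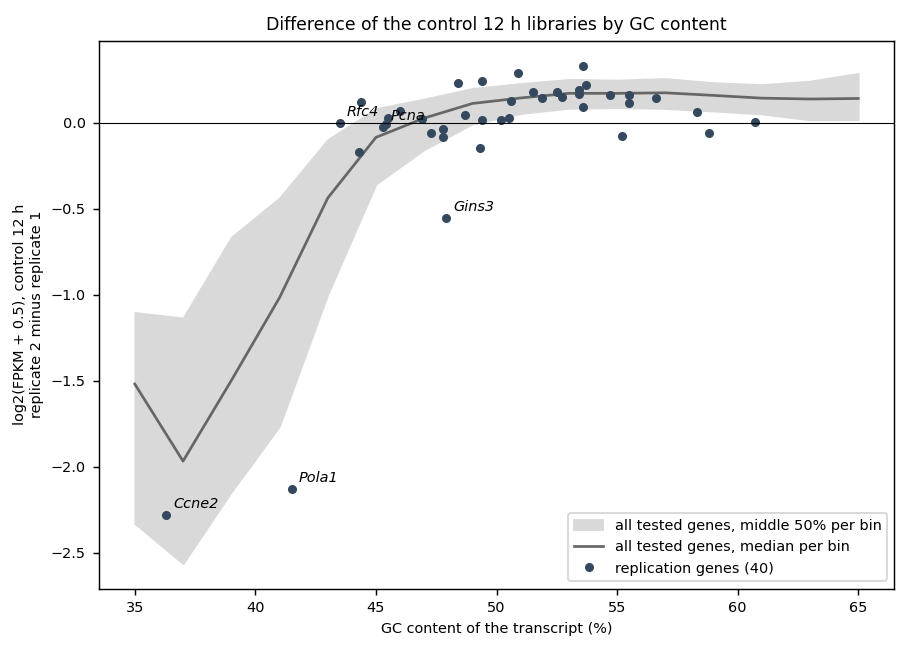
Difference of log2(FPKM + 0.5) between the control 12 h libraries (replicate 2 minus replicate 1, vertical axis) against transcript GC content in percent (horizontal axis), for the 40 tested replication genes (points), with the median (line) and the middle 50% (band) of all tested genes in bins of GC content. Most replication genes lie near 0, while Pola1 and Ccne2 lie below -2.

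At 12 h most replication genes were lower in MPC EV myotubes than in controls. Of the 40 tested, 26 fell and 1 rose (limma on log2(FPKM + 0.5), two-sided, Benjamini-Hochberg adjusted p under 0.05 over 10981 genes, as in all comparisons here). Over all tested genes 14.3% fell and 4.36% rose. The median log2 fold change was -0.46 for the replication genes and -0.12 for all tested genes. In 37 genes both MPC EV libraries were below both control libraries, against 45% of all tested genes, and 1 gene (2.50%) was above, against 17.1%. Summed over the 42 genes, FPKM came to 337.6 and 350.9 in the MPC EV libraries and to 499.9 and 521.4 in the controls.

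Without MPC EV 12 h replicate 1 or 2, 3 and 4 genes passed as lower. Leaving out any 1 of the 24 h libraries, which lend only their estimate of spread, gave 10 or 11. Without control 12 h replicate 1 it was 29 and without replicate 2 it was 18, of which 17 were among the 26. The shares of all tested genes called in these fits are not given here. These counts therefore do not show whether the replication genes or the whole test changed. Without any 1 of the 12 h libraries, the median of the replication genes was -0.50 to -0.42, against -0.17 to -0.10 over all genes. The fit to the 4 libraries of 12 h alone called none. Under median-ratio scaling, which moved the median of all genes to 0.01, 13 fell, all of them among the 26, and the median of the replication genes was -0.33. Across all genes the share of calls that were higher was 23.4%, against 57.3% under median-ratio scaling, 40.4% under quantile normalization and 55.8% after correction for GC content and length. At least 35 of the replication genes were negative under 21 of the 22 alternatives, and under the remaining one, a filter of 5 FPKM, all 24 genes kept were.

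**Figure D2:**
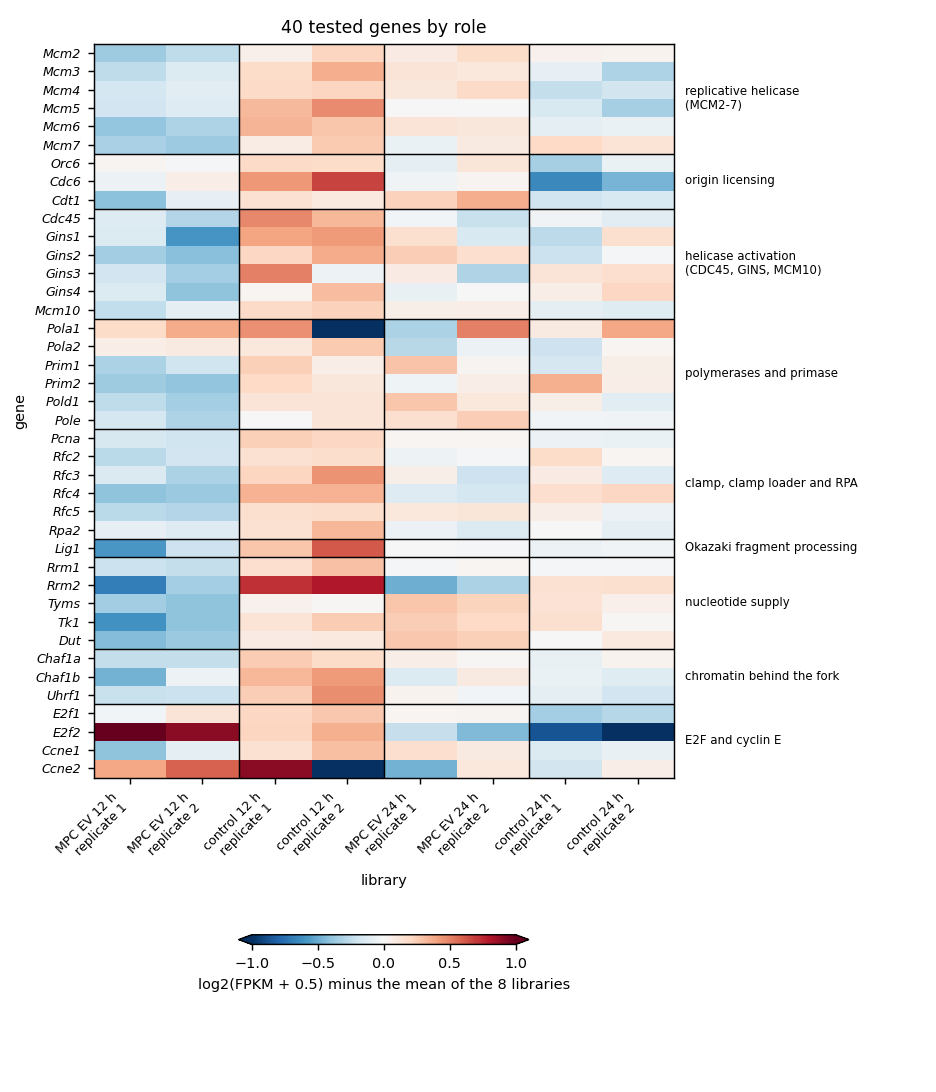
Level of the 40 tested genes (rows, grouped by role) in the 8 libraries (columns), as log2(FPKM + 0.5) minus the mean of the 8 libraries, with red above and blue below that mean. The 12 h MPC EV columns are mostly blue and the 12 h control columns mostly red, E2f2 is highest in the 12 h MPC EV columns, and Pola1 and Ccne2 are low in control 12 h replicate 2.

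The replicative helicase fell as a whole at 12 h: all 6 MCM2-7 genes passed, with log2 fold changes of -0.66 to -0.34. Mcm6 had 8.63 and 9.15 FPKM in MPC EV myotubes, against 14.6 and 14 FPKM in controls. Its log2 fold change was -0.66 ± 0.07 (SE), with a limma adjusted p of 0.00541. Mcm7 had 19.5 and 19.1 FPKM in MPC EV myotubes and 25.9 and 29.6 FPKM in controls, Mcm5 had 5.50 and 5.75 FPKM against 8.07 and 8.96 FPKM, and Mcm2 had 13.0 and 14.01 FPKM against 17.4 and 19.6 FPKM. The libraries of the groups did not overlap in any of these. Under median-ratio scaling 4 of the 6 passed, without Mcm3 and Mcm4. Mcm6 lost its call in 1 of 22 alternatives, Mcm7 in 5, Mcm5 in 6 and Mcm2 in 9.

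The genes that load that helicase did not pass at 12 h. Cdc6, the ATPase that recruits MCM2-7 with CDT1, had 1.11 and 1.25 FPKM in MPC EV myotubes and 1.76 and 2.17 FPKM in controls, and its log2 fold change of -0.55 had a limma adjusted p of 0.0515. Cdt1 stood at -0.37 (limma adjusted p = 0.0705) and Orc6, a subunit of the origin recognition complex, at -0.18 (0.281), with both MPC EV libraries below both controls in each. Orc1, the largest subunit of that complex, was below the filter at 0.45 to 0.74 FPKM. Of the 6 genes for helicase activation, Cdc45 fell, with 4.34 and 3.82 FPKM in MPC EV myotubes against 6.85 and 6.13 FPKM in controls (log2 -0.61 ± 0.12, limma adjusted p = 0.0226), and so did Gins2 (-0.67). Of the exon bases of Gins2, 67.3% are shared with Gse1 on the opposite strand, and reads of the non-stranded libraries cannot be assigned between them. Cdc45 lost its call in 7 of 21 alternatives, median-ratio scaling among them. Gins2 kept its call under that scaling but not under quantile normalization or after correction for GC content and length. Gins1, Gins3, Gins4 and Mcm10 had log2 fold changes of -0.77 to -0.38 that did not pass.

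At the fork, the clamp and its loader fell together: all 6 genes of the clamp, clamp loader and RPA group passed. Pcna, the sliding clamp, had 58.4 and 56.6 FPKM in MPC EV myotubes, against 76.7 and 75.3 FPKM in controls. Its log2 fold change of -0.40 ± 0.05 was small but large beside the spread (limma adjusted p = 0.00742). Rfc4, a subunit of the loader that opens the clamp, had 3.70 and 3.79 FPKM against 6.59 and 6.58 FPKM (log2 -0.74 ± 0.08, limma adjusted p = 0.00584). Rpa2, which coats single-stranded DNA, fell by 0.35 on the log2 scale, and Rfc2, Rfc3 and Rfc5 by 0.39 to 0.56. Under median-ratio scaling only Pcna and Rfc4 of these 6 passed. Of the polymerase and primase genes, Pold1, the catalytic subunit of the lagging-strand polymerase, and Prim2, the large primase subunit, fell by 0.42 and 0.53. Neither Pold1 nor Prim2 passed under median-ratio scaling or after correction for GC content and length. Pole, Prim1 and Pola2 stood at -0.31, -0.41 and -0.10 and did not pass, and Pola2 turned to 0.03 under median-ratio scaling and 0.07 after correction for GC content and length. Pola1 overlapped between the groups, with 1.86 and 2.18 FPKM in MPC EV myotubes and 2.35 and 0.15 FPKM in controls, and its log2 fold change turned to -0.18 without control 12 h replicate 2, against 0.89 with it. Lig1, which seals Okazaki fragments, fell by 0.84, whereas Fen1, which trims them, was listed at only 0.09 to 0.40 FPKM (4 to 19 fragments) and was not tested.

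All 5 nucleotide supply genes fell at 12 h, and Rrm2 fell most of the 40 genes. Rrm2, the cell-cycle-regulated subunit of ribonucleotide reductase, had 33.25 and 42.7 FPKM in MPC EV myotubes, against 90.0 and 94.3 FPKM in controls. The ratio on the log2(FPKM + 0.5) scale was 0.412, a log2 of -1.28 ± 0.12 (limma adjusted p = 0.004), and of 22 alternatives it lost its call in 1, the fit to the 12 h libraries alone. Its partner subunit Rrm1 had 18.7 and 18.4 FPKM in MPC EV myotubes and 24.5 and 26.7 FPKM in controls (log2 -0.45, limma adjusted p = 0.0103). Tk1, thymidine kinase, had 3.94 and 4.60 FPKM against 6.93 and 7.53 FPKM (-0.70, 0.0128), and Dut, which removes dUTP, had 7.85 and 8.22 FPKM against 11.4 and 11.6 FPKM (-0.49, 0.0112). Tyms, thymidylate synthase, fell by 0.40. Rrm1 lost its call in 5 of 22 alternatives, Tk1 in 4 and Dut in 4. Tyms did not pass under median-ratio scaling, and after correction for GC content and length only Rrm2 and Dut of the 5 passed. None of these 5 genes overlapped between the groups. The 3 genes for chromatin behind the fork fell as well, with log2 fold changes of -0.57 for Uhrf1, which carries DNA methylation over to the new strand, -0.64 for Chaf1b and -0.46 for Chaf1a, subunits of the assembly factor CAF-1. Of the exon bases of Chaf1a, 52.5% are shared with Ubxn6 on the opposite strand, so its reads are uncertain in the same way. Only Uhrf1 of these 3 chromatin genes passed under median-ratio scaling, and likewise after correction for GC content and length.

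Of the 4 E2F and cyclin E genes, 1 fell and 1 rose at 12 h. E2f1, an activating E2F factor, had 8.09 and 9.05 FPKM in MPC EV myotubes and 9.57 and 10.04 FPKM in controls, a log2 fold change of -0.19 ± 0.08 that did not pass (limma adjusted p = 0.155) and that turned to 0.07 after correction for GC content and length. E2f2, another activating E2F factor, was the gene that rose, and it was named after its values were seen. It had 2.92 and 2.46 FPKM in MPC EV myotubes, against 1.34 and 1.53 FPKM in controls (log2 0.72 ± 0.16, limma adjusted p = 0.0317). That call was met in 10 of the 21 alternatives that kept the gene, and was lost without MPC EV 12 h replicate 1 (limma adjusted p = 0.147), without replicate 2 (0.0999) and without any 1 of the 24 h libraries. Ccne1, the cyclin that activates CDK2 at the start of S phase, fell, with 7.59 and 9.46 FPKM against 11.4 and 12.7 FPKM (log2 -0.48 ± 0.12, limma adjusted p = 0.0393), but passed in only 7 of 22 alternatives. Ccne2 had 1.997 and 2.38 FPKM in MPC EV myotubes and 3.07 and 0.23 FPKM in controls, and its log2 fold change of 0.73 turned to -0.41 without control 12 h replicate 2.

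Promoter sequence is shown for the 4 genes that had the smallest adjusted p at 12 h among those with an E2F motif. Rrm2, Rfc4, Pcna, Rrm1, Dut and Tk1, which had a smaller adjusted p than Uhrf1, had no match. The bases are the 250 before the RefSeq transcription start (GRCm38.p6), 5′ to 3′ on the gene's strand, with motif matches in capitals and overlapping matches run together. The Mcm6 window is chr1:128359706-128359955 on the minus strand, Uhrf1 is chr17:56304063-56304312 on the plus strand, Mcm7 is chr5:138171884-138172133 on the minus strand, and Mcm5 is chr8:75109259-75109508 on the plus strand. For Uhrf1 and Mcm7 it is 1 of 2 promoters in the table.
Mcm6: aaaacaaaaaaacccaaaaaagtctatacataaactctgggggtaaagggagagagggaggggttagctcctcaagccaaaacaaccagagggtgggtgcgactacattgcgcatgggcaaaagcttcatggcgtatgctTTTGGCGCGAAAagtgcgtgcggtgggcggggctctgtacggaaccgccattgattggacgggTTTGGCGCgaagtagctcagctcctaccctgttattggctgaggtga
Uhrf1: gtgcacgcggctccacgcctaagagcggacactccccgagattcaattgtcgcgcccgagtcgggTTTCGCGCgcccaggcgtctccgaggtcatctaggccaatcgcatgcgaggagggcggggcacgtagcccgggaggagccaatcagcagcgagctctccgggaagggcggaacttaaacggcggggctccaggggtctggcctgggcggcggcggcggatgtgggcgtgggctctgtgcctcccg
Mcm7: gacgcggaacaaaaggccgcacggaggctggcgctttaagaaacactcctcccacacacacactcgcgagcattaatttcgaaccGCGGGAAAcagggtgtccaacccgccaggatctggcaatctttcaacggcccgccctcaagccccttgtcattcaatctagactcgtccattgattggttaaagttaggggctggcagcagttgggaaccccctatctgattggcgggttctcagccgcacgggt
Mcm5: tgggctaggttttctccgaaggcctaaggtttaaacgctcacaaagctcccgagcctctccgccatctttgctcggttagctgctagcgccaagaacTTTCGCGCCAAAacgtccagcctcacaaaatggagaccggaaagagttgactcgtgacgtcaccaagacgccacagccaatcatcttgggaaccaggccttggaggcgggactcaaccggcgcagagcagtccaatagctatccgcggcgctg

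The motif was any of TTTGGCGC, TTTCCCGC, TTTCGCGC and TTTGCCGC on either strand, searched in 300 bases that also hold the 50 after the start. Counted as the leftmost base before the start, Mcm6 had matches at 110, 106 and 47 bases, Mcm5 at 153 and 149, Uhrf1 at 185, and Mcm7 at 165 with a further match 17 bases after the start. The table held promoters for 34 of the 42 genes, and 14 of these (41.2%) had the motif. By promoter it was 14 of 40 (35%), against 2.26% of all 32851 promoters in the table. The CCAAT box was in 57.5% of the promoters of these genes and in 37.4% of all. Genes with and without the E2F motif had close median log2 fold changes at 12 h, -0.51 (13 tested genes) and -0.45 (19 tested genes). Of the 22 genes called lower at 12 h whose promoters were searched, 8 (36.4%) had the motif. A match here is a description of letters and shows no binding.

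**Figure D3:**
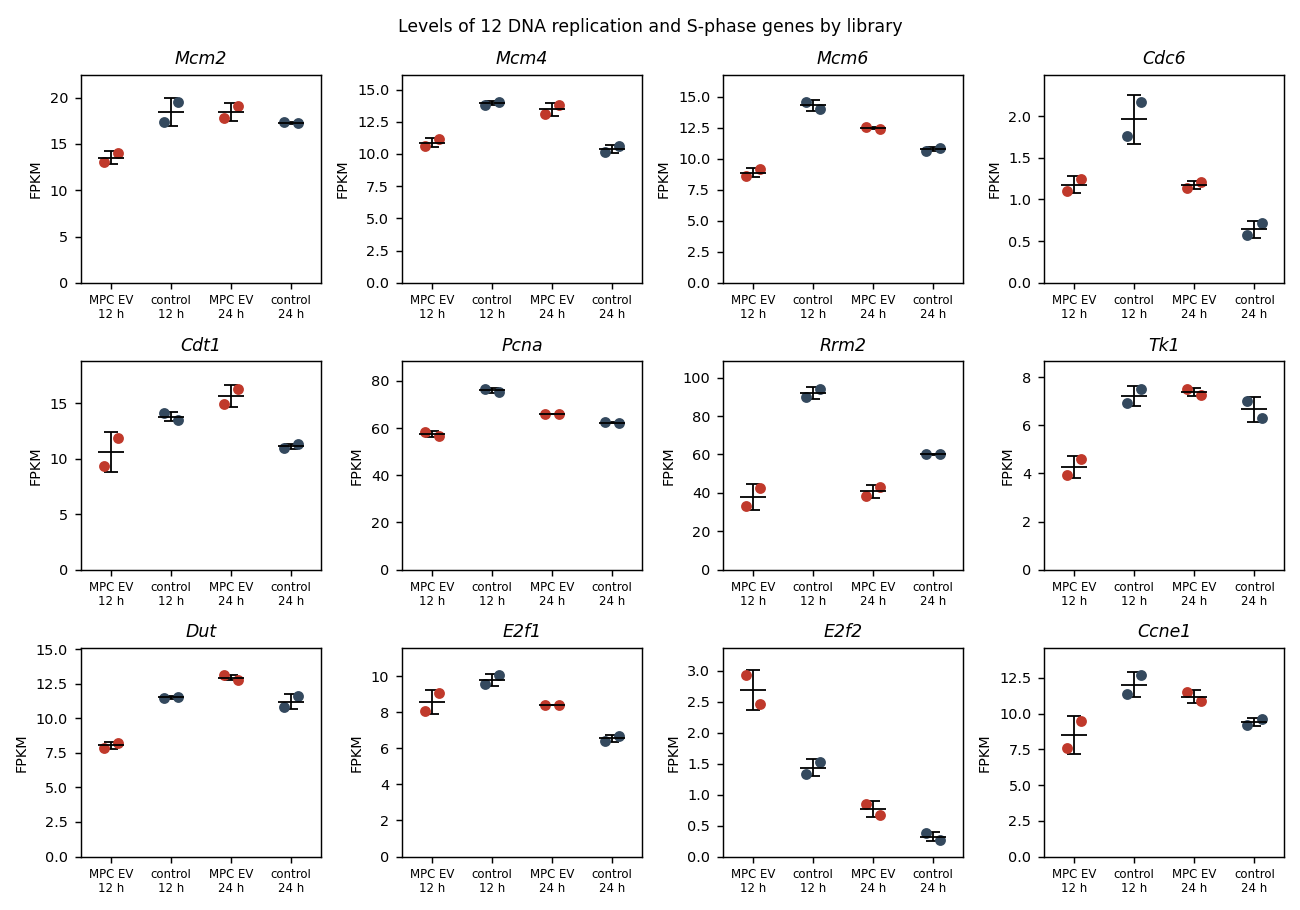
FPKM of 12 replication genes in each library (points), with the mean (dash) and SD (bar) of the 2 libraries, for MPC EV and control myotubes at 12 h and at 24 h. Rrm2 is below control at both times, most others are below control at 12 h and at or above it at 24 h, and E2f2 is above control at both.

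At 24 h no replication gene passed in either direction. Over all tested genes, 2.61% rose and 0.956% fell. At an unadjusted p under 0.05, 9 genes were positive and 2 negative, against 8.39% and 5.83% of all tested genes, and limma-voom on the recovered fragments called 1, Mcm4, as higher. The median log2 fold change was 0.10, against -0.03 over all genes, and 27 of 40 genes were positive. In 21 genes both MPC EV libraries were above both controls and in 6 both were below, against 23.7% and 30.2% of all genes. The summed FPKM of the 42 genes was 404.5 and 415.5 in the MPC EV libraries and 409.9 and 409.2 in the controls.

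Mcm4 came nearest to the threshold at 24 h. It had 13.1 and 13.8 FPKM in MPC EV myotubes, against 10.1 and 10.6 FPKM in controls (log2 0.36 ± 0.07, limma adjusted p = 0.0505), and it passed in 8 of 22 alternatives. Cdt1 had 14.9 and 16.3 FPKM against 10.9 and 11.3 FPKM (log2 0.47, limma adjusted p = 0.107), Cdc6 had 1.14 and 1.20 FPKM against 0.57 and 0.71 FPKM (0.55, 0.139), and E2f1 had 8.383 and 8.395 FPKM against 6.43 and 6.67 FPKM (0.33, 0.108). In each of these the MPC EV libraries lay above the controls without overlap. When either 12 h control library was left out, Mcm4 and Cdt1 passed as higher and Rrm2 as lower. Rrm2 was the largest negative value, with 38.4 and 43.3 FPKM in MPC EV myotubes and 60.04 and 60.42 FPKM in controls (log2 -0.56 ± 0.12, limma adjusted p = 0.0741). E2f2 had 0.85 and 0.67 FPKM against 0.37 and 0.27 FPKM (0.61, 0.123). Pcna and Mcm2 differed by less, with log2 fold changes of 0.08 (95% interval -0.04 to 0.20) and 0.09 (-0.11 to 0.29), and Ccne1 stood at 0.23 (-0.05 to 0.52).

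**Figure D4:**
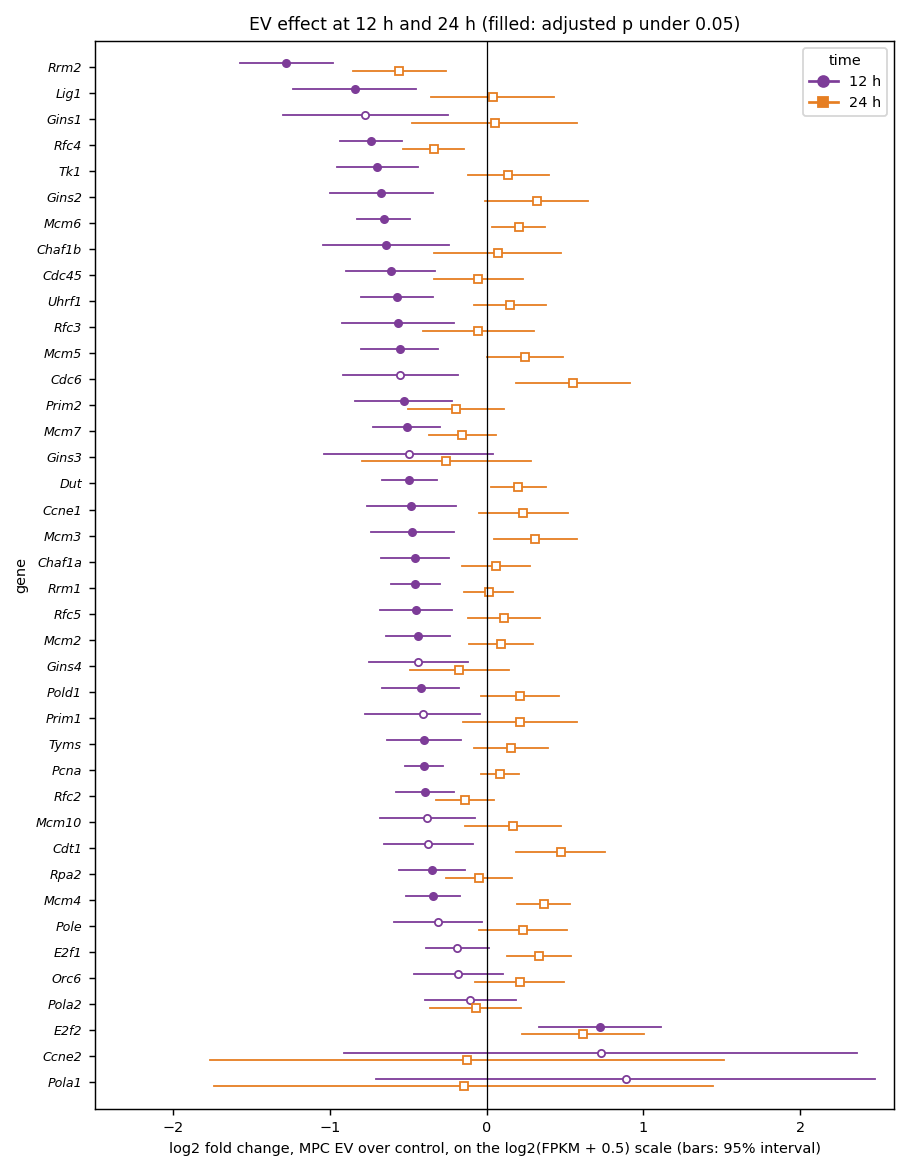
Log2 fold change of MPC EV over control at 12 h (circles) and 24 h (squares) for each of the 40 tested genes, ordered by the 12 h value, with 95% intervals (bars) and filled symbols for a limma adjusted p under 0.05. The filled symbols are the 26 lower genes and E2f2 at 12 h, and the wide bars at the bottom are Ccne2 and Pola1.

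The EV effects at 12 h and 24 h were then compared directly, by testing the 24 h effect minus the 12 h effect. None of the 40 genes and none of the 10981 tested genes (0%) passed with limma. At an unadjusted p under 0.05, 31 replication genes were above 0 and 0 below, against 15.8% and 2.55% of all genes, and limma-voom gave 30 and 0 at that level and 0 calls. The difference was positive for 37 of 40 genes, with a median of 0.55, against 0.11 over all genes. The smallest adjusted p, 0.0985, belonged to Mcm6 (0.86 ± 0.10), Mcm4 (0.71 ± 0.10) and Pcna (0.48 ± 0.07), followed by Dut (0.69, limma adjusted p = 0.0993), Mcm5 (0.80, 0.124) and Tk1 (0.84, 0.13). Cdc6 had a difference of 1.10 ± 0.21 (0.136), Rrm2 of 0.72 (0.146), Ccne1 of 0.71 (0.146), Mcm2 of 0.53 (0.146) and E2f1 of 0.52 (0.146). Without control 12 h replicate 1 the median difference was 0.57, against 0.16 over all genes, and 36 of 40 genes were positive. That fit rests the 12 h control on the library that stands apart. Without that library instead, the median was 0.55, against 0.07 over all genes, and 38 of 40 genes were positive. With the GC content and length correction as well, the median was 0.51, against 1e-04 over all genes.

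The time comparisons set 24 h over 12 h within each treatment, and each shares its 12 h and 24 h libraries with the EV comparisons above. In controls 11 replication genes fell and 0 rose between 12 h and 24 h, against 10.3% and 7.54% of all tested genes. At an unadjusted p under 0.05, limma gave 22 lower and 0 higher, against 18.2% and 15.1% of all tested genes, and limma-voom called 12 lower and 0 higher. The median log2 fold change was -0.29, against 0.01 over all genes, and 35 of 40 genes were negative. Both 24 h controls were below both 12 h controls in 30 genes and above in 1, against 30.9% and 27.8% of all tested genes. The count of calls was 3 without control 24 h replicate 1 and 2 without replicate 2, and 15 without control 12 h replicate 1.

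In controls E2f2 fell most, with 0.37 and 0.27 FPKM at 24 h against 1.34 and 1.53 FPKM at 12 h (log2 -1.23 ± 0.16, limma adjusted p = 0.00465). Cdc6 had 0.57 and 0.71 FPKM at 24 h and 1.76 and 2.17 FPKM at 12 h (-1.11 ± 0.15, 0.00554), and E2f1 had 6.43 and 6.67 FPKM against 9.57 and 10.04 FPKM (-0.55 ± 0.08, 0.00809). Both activating E2F genes passed as lower over time in controls. Of the helicase genes, Mcm3, Mcm4, Mcm5 and Mcm6 fell, by 0.39 to 0.64 on the log2 scale, whereas Mcm2 stood at -0.09 (limma adjusted p = 0.478) with 17.4 and 17.2 FPKM at 24 h and 17.4 and 19.6 FPKM at 12 h. Rrm2 fell by 0.61 (0.0202) and Pcna by 0.28 (0.0128), with 62.6 and 62.1 FPKM at 24 h against 76.7 and 75.3 FPKM at 12 h. Cdc45 and Uhrf1 were the other genes that fell, and Ccne1 stood at -0.33 (0.102).

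In MPC EV myotubes 13 replication genes rose and 1 fell between 12 h and 24 h, against 12.9% and 5.4% of all tested genes. The median log2 fold change was 0.24, against 0.10 over all genes, and 34 of 40 genes were positive. Both 24 h libraries were above both 12 h libraries in 26 genes and below in 3, against 47.1% and 23.6% of all tested genes. The scaling weighed on the higher count, which was 5 under median-ratio scaling and 6 under quantile normalization. The share of higher among all genes' calls was 70.5%, against 49.3% and 55.7% under these scalings and 47.3% after correction for GC content and length. Single libraries weighed on it too: it was 1 without MPC EV 12 h replicate 1 and 4 without replicate 2, 1 with any 1 MPC EV 24 h library left out and 5 with any 1 control 24 h library left out.

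**Figure D5:**
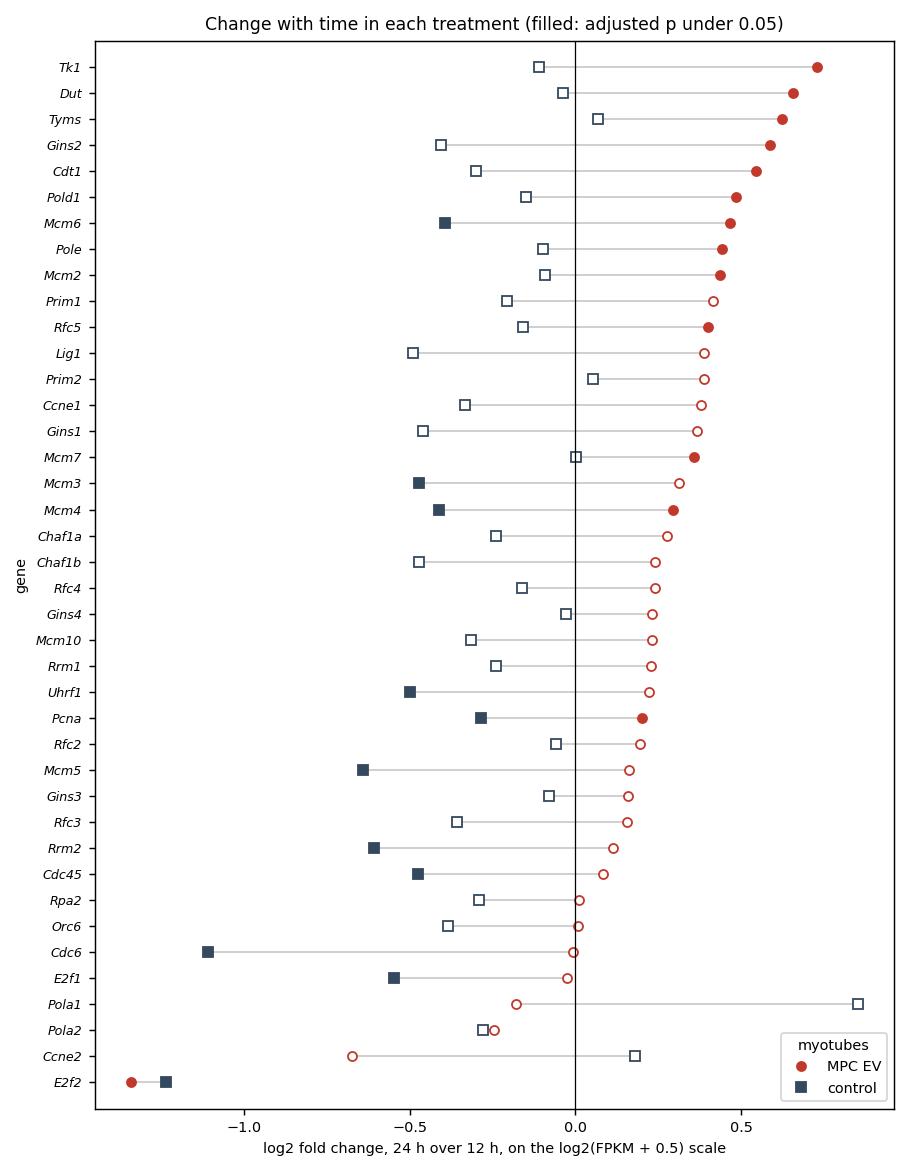
Log2 fold change of 24 h over 12 h for each of the 40 tested genes in MPC EV myotubes (circles) and control myotubes (squares), ordered by the MPC EV value, with filled symbols for a limma adjusted p under 0.05. Circles lie mostly right of 0 and squares mostly left of it, with E2f2 far to the left in both.

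Of the 5 nucleotide supply genes, Dut, Tk1 and Tyms rose over time in MPC EV myotubes, and Rrm1 and Rrm2 did not pass. Dut had 13.1 and 12.8 FPKM at 24 h, against 7.85 and 8.22 FPKM at 12 h (log2 0.66 ± 0.07, limma adjusted p = 0.00321), and passed under all 22 alternatives. Tk1 had 7.50 and 7.26 FPKM at 24 h and 3.94 and 4.60 FPKM at 12 h (0.73 ± 0.11, 0.00849), and Tyms had 3.96 and 3.79 FPKM against 2.39 and 2.29 FPKM (0.62 ± 0.10, 0.01). Of the helicase genes Mcm2, Mcm4, Mcm6 and Mcm7 rose, with Mcm6 at 12.5 and 12.4 FPKM at 24 h and 8.63 and 9.15 FPKM at 12 h (0.47 ± 0.07, 0.0087). Mcm2 had 17.8 and 19.1 FPKM against 13.0 and 14.01 FPKM (0.44 ± 0.08, 0.0188). Pcna rose by a log2 of 0.20 (0.0397), a call lost in 15 of 22 alternatives. Cdt1, Gins2, Pold1, Pole and Rfc5 rose by 0.40 to 0.59. Of the 13 genes that rose, only Mcm2, Mcm6, Dut, Tk1 and Tyms passed under median-ratio scaling, and the same 5 after correction for GC content and length.

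E2f2 was the gene that fell over time in MPC EV myotubes, with 0.85 and 0.67 FPKM at 24 h against 2.92 and 2.46 FPKM at 12 h (log2 -1.34 ± 0.16, limma adjusted p = 0.00426). Rrm2 had 38.4 and 43.3 FPKM at 24 h and 33.25 and 42.7 FPKM at 12 h, overlapping levels with a log2 fold change of 0.11 (0.565). Cdc6 stood at -0.01 (0.984), E2f1 at -0.03 (0.852) and Ccne1 at 0.38 (0.0715), and these 3 genes did not pass over time in MPC EV myotubes. Whether the time change differed between the treatments is the same quantity as the difference of the EV effects tested above, in which no gene passed.

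The libraries of 12 h and 24 h are separate, so the pattern of a gene over both EV comparisons can be counted. In 20 of the 40 replication genes both MPC EV libraries were below both controls at 12 h and above both at 24 h, against 6.79% of all tested genes. They were Mcm2 to Mcm6, Cdc6, Cdt1, Gins2, Mcm10, Pold1, Pole, Pcna, Rfc5, Lig1, Tyms, Tk1, Dut, Uhrf1, E2f1 and Ccne1. In 6 genes, Mcm7, Gins3, Gins4, Rfc2, Rfc4 and Rrm2, the MPC EV libraries were below the controls at both times, against 17.2% of all tested genes. In E2f2 alone of the 40 they were above at both times, against 8.33% of all. In 19 genes both 24 h controls were below both 12 h controls while both 24 h MPC EV libraries were above both 12 h MPC EV libraries, against 8.07% of all tested genes.

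Beyond the 42 genes, 5 further lists of cell-cycle genes and the CDK inhibitors were read in the same fit, in which 14.3% of all tested genes fell at 12 h. Of the prereplication and origin firing genes 1 of 12 tested fell at 12 h with MPC EVs: Gmnn, geminin, the inhibitor of CDT1, averaged 3.51 ± 0.03 FPKM in MPC EV myotubes and 6.30 ± 0.07 FPKM in controls (SD, n = 2 each; log2 -0.76, limma adjusted p = 0.00914). Of the fork and polymerase genes 5 of 18 fell, with Pole4 and Pole3, small subunits of the leading-strand polymerase, at -0.32 and -0.38, Pold2, a subunit of DNA polymerase delta, at -0.47, and Ctc1, of the telomere-capping CST complex, at -0.45. Of the chromatin and nucleotide genes 7 of 15 fell, among them Dtymk, thymidylate kinase, at -0.44, Dctd, dCMP deaminase, at -0.48, and Rbbp4, a histone chaperone, at -0.40. The medians of these lists were -0.08, -0.34 and -0.21, against -0.12 over all genes. At 24 h 0 of the 45 genes tested in these 3 lists passed with limma and 0 with limma-voom, and at an unadjusted p under 0.05 limma gave 3 negative and 2 positive.

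Among the E2F, RB and G1 cyclin genes, 3 of 23 fell and 1 rose at 12 h, shares close to the 14.3% and 4.36% of all tested genes. Cdk4, the kinase partner of D cyclins, had 112.7 and 111.9 FPKM in MPC EV myotubes and 154.3 and 165.6 FPKM in controls (log2 -0.51, limma adjusted p = 0.00948). Mybl2 and Myc, growth-linked transcription factors, fell by 0.58 and 0.47. Ccnd3, cyclin D3, which is known to be induced in differentiating muscle, rose by 0.42. At 24 h, where 2.61% of all genes rose, 2 of the 23 did, Ccnd3 (0.48, limma adjusted p = 0.0171) and Ccnd1, cyclin D1. Ccnd1 had 87.4 and 86.5 FPKM in MPC EV myotubes at 24 h, against 51.3 and 45.8 FPKM in controls (0.84 ± 0.10, 0.0103). Of the 7 CDK inhibitors, Cdkn2b rose at 12 h (0.43) and at 24 h (0.58), and Cdkn2a fell at 12 h by 0.30. Cdkn1a, the inhibitor that holds differentiating myoblasts out of the cycle, stood at 1344 and 1349 FPKM in MPC EV myotubes and 1292 and 1475 FPKM in controls at 12 h, overlapping levels, and it was named here after its values were seen.

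The mitosis genes act after S phase. With MPC EVs 5 of 18 fell at 12 h, against 14.3% of all tested genes. Among them Cdk1, the mitotic kinase, fell by 0.65, Ccnb1, cyclin B1, by 0.46 and Aurka, a spindle kinase, by 0.56. At 24 h Ccnb2 was the 1 of 18 that fell, against 0.956% of all tested genes. Between 12 h and 24 h, 13 of 18 rose in MPC EV myotubes and 11 of 18 rose in controls, with medians of 1.00 and 0.98, against 0.10 and 0.01 over all genes, of which 12.9% and 7.54% rose. Ccnb1 had 13.0 and 13.0 FPKM at 24 h against 3.29 and 3.29 FPKM at 12 h in MPC EV myotubes, and 14.6 and 14.5 FPKM at 24 h against 4.38 and 5.04 FPKM at 12 h in controls. Over the same interval, 4 of the 23 E2F, RB and G1 cyclin genes rose and 2 fell in MPC EV myotubes, and 1 rose and 7 fell in controls. Of all tested genes 5.4% fell in MPC EV myotubes and 10.3% in controls. In both treatments Ccnd3 fell, by 1.00 in MPC EV myotubes and 1.06 in controls. Of the 7 CDK inhibitors, 3 rose and 2 fell over time in MPC EV myotubes, and 1 rose and 2 fell in controls. Cdkn1c, a CDK inhibitor of the p57 type, stood at -1.59 and -2.06 and fell in both.

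Markers of cell identity moved in the same comparisons, and their part in these results was not tested. At 12 h 4 of 10 tested myotube markers rose and 0 fell with MPC EVs: Actn2 (1.64), Myh3 (1.5), Myh8 (1.42) and Ttn (1.99). At 24 h 5 of 10 rose, against 2.61% of all tested genes, and all 10 were positive. The 24 h minus 12 h difference was positive for 9 markers and -1.69 for 1, and only Ttn had a 12 h value large enough for that. Whether control 12 h replicate 2, which stands apart, weighed on these marker values was not tested. Of 9 progenitor markers 7 were tested, and at 12 h 1 rose (Cdh15, 0.29) and 1 fell (Vcam1, -0.56), where 4.36% of all genes rose and 14.3% fell. At 24 h 2 of the 7 rose (Cdh15 and Sdc4), where 2.61% of all genes rose. Over time 2 of the 7 fell in MPC EV myotubes, and in controls 5 of the 7 fell and 1 (Myf5) rose, where 5.4% of all genes fell in MPC EV myotubes and 10.3% in controls. The 9 progenitor markers summed to 995 to 1036 FPKM in MPC EV myotubes and 1042 to 1124 FPKM in controls at 12 h, and to 781 to 785 FPKM and 738 to 740 FPKM at 24 h. Of 8 fibroblast markers 4 were tested. Col1a1 and Col1a2 fell at 12 h and 1 of the 4 fell at 24 h, where 14.3% and 0.956% of all genes fell. At 12 h the list summed to 114 to 160 FPKM in MPC EV myotubes and 137 to 166 FPKM in controls. Dcn, Lum and Thy1 were under 0.5 FPKM in all 8 libraries. The 6 pericyte and smooth muscle markers summed to 1587 to 1663 FPKM in MPC EV myotubes and 1508 to 1812 FPKM in controls at 12 h. Of the 6, 4 averaged under 1 FPKM, so nearly all of that sum came from Acta2 and Cspg4. Myh11 and Cnn1 were under 0.5 FPKM in all 8 libraries. Over time, 4 of 10 myotube markers fell in MPC EV myotubes and 8 of 10 in controls.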

How the data were processed

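RNA of 8 myotube samples was sequenced in pairs from libraries that do not keep strand, per the labels' protocols. The authors deposited 1 table of FPKM per gene. Per the submitters' processing notes the tools were HISAT2 and DESeq2 and a build named is mm10; the sources used here do not give their roles, the annotation or the counting settings. FPKM fixes the total of a library, so a shift in highly expressed genes moves all others. Of 35275 IDs, 34490 matched a symbol.

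FPKM values are not counts, so genes that averaged 1 FPKM or more were tested with limma 3.58.1 (R 4.3.3) on log2(FPKM + 0.5), which understates changes of low genes. One fit held the 4 groups of 2 libraries (4 residual degrees of freedom), with an intensity trend, two-sided tests and Benjamini-Hochberg adjustment over 10981 genes at 0.05. The script was tested on simulated data. Whole fragments were recovered for 10979 of 10981 tested genes within a tolerance of 0.02 fragments, and limma-voom on them was added as an alternative after seeing the data.

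Named in full were the up to 12 genes with the smallest adjusted p at 12 h and up to 6 elsewhere, always Mcm2, Pcna, Rrm2, Cdc6, E2f1 and Ccne1, up to 4 genes of each further list, and genes said to be named after their values were seen, among them Pola1 and Ccne2. Members, lists and tests were chosen with earlier results of these data known. Alternatives were other pseudocounts and filters, median-ratio and quantile scaling, no trend, a replicate block, a GC content and length correction, the 4 libraries of a comparison alone, and each library left out. Promoter sequences and coordinates are from RefSeq (GRCm38.p6), and exon overlaps from GENCODE.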

Additional observations from a re-analysis of the deposited data

How the results depend on the processing

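The replication genes called lower at 12 h numbered 26. They were 16 with no filter, 13 under median-ratio scaling, 16 under quantile normalization, 10 after correction for GC content and length, 0 with the 4 libraries of the comparison alone, and 15 without control 12 h replicate 2 with the GC content and length correction. Without 1 library at a time the count was 3 to 29. The 1 called higher became 0 under a pseudocount of 0.1, a filter of 5 FPKM (which removes E2f2), no filter, quantile normalization and the 4 libraries alone, and was 0 to 3 without 1 library. At 24 h, where 0 passed either way, 1 was lower with the 4 libraries alone and 1 without control 12 h replicate 2 with the GC correction (0 to 1 without 1 library). Higher at 24 h was 1 under a pseudocount of 0.1, a filter of 5 FPKM, median-ratio scaling, limma-voom and without control 12 h replicate 2 with the GC correction, and 2 with the 4 libraries alone (0 to 2 without 1 library). The difference of the EV effects gave 0 above 0, but 2 without control 12 h replicate 2 with the GC correction, and 0 to 23 without 1 library (below 0: 0 to 2). Over time in controls the 11 lower became 1 with the 4 libraries alone and 2 to 15 without 1 library (higher: 0 to 2). In MPC EV myotubes the 13 higher became 8 with no filter, 5 under median-ratio scaling, 6 under quantile normalization, 5 after the GC correction, and 1 to 17 without 1 library. The 1 lower became 0 with the filter of 5 FPKM and 3 without control 12 h replicate 2 with the GC correction (1 to 2 without 1 library). Apart from the fits with the replicate block, given next, the other alternatives left each count within 1.5 times of its value. Except where fewer libraries or genes entered by construction, the cause of these changes was not tested.

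With the replicate number as a block, 18 genes passed as lower and 0 as higher at 12 h, and 7 as higher over time in MPC EV myotubes. With the block and the GC content and length correction together these were 3 lower at 12 h, 7 lower over time in controls and 1 higher over time in MPC EV myotubes. Same-numbered libraries correlated in their deviations at -0.613 to 0.241 over the 6 pairs of groups. These correlations cannot decide whether the numbers pair the samples. The difference between replicates had an SD of 0.65 log2 in the 12 h controls, where replicate 2 stands apart, against 0.173 to 0.242 in the other groups.

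Signs turned for few of the named genes. E2f1 at 12 h was 0.072 after the GC correction, with and without the block. Pola1 at 12 h was -0.18 without control 12 h replicate 2 and 1.95 without replicate 1, Ccne2 was -0.41 and 1.87 in these fits, and both were negative without replicate 2 with the GC correction as well (-0.17 and -0.33). Over time in MPC EV myotubes, leaving out 1 library gave -0.065 to 0.29 for Rrm2, -0.067 to 0.056 for Cdc6 and -0.10 to 0.049 for E2f1. With 2 libraries per group, 4 residual degrees of freedom and at most 42 fragments per library for Orc1 and 19 for Fen1, small changes and these low genes were not resolved.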
